A study of Mus musculus with 7 samples.

Results

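The control glomeruli of a Shroom3 knockdown study were described by themselves, as a baseline. The 4 libraries whose label calls them controls were taken, of 7 in all, and the mean of their values was formed for each of 12958 gene rows. The 3 knockdown libraries were not used. Glomeruli are the filtering units of the kidney, and their RNA was sequenced in bulk, so that each value is a sum over every cell type in the preparation. The study as a whole set these animals against mice in which Shroom3, an actin-binding protein of cell junctions, had been lowered.

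The control mice were 14-week-old males of the BALB-C strain, littermates that did not carry the siRNA transgene. Doxycycline was still given to them, in food and drinking water, starting at 8 weeks of age and lasting 6 weeks, so the baseline is that of doxycycline-treated mice and not of untouched ones. Glomeruli were collected by perfusing the kidney with beads, followed by a magnet and sieving. Libraries were prepared from 2 µg of total RNA by poly-A selection, and the labels add depletion of ribosomal RNA. The design text counts animals, so each library was taken as 1 mouse. Control 1, control 2 and control 3 have titles that begin with G, and control 4 has a title that begins with CB6; what the title styles stand for is not given in the sources used here.

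A glomerulus is a tuft of capillaries lined by fenestrated endothelium, held together by mesangial cells and wrapped by podocytes. The podocyte is a terminally differentiated epithelial cell whose interlocking foot processes are bridged by the slit diaphragm, a junction built around nephrin, and which rests on a basement membrane of type IV collagen and laminin shared with the endothelium. Podocytes supply VEGF to the endothelium, endothelial cells supply PDGF-B to the mesangium, and the parietal epithelium of Bowman's capsule leads into the proximal tubule. Isolated glomeruli can also carry fragments of tubule and of arteriole with them.

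Values are on a log scale that was read as base 2, so that a difference of 1 is a doubling; the base is not stated in the sources. The median of the gene means was 9.15, the 90th percentile was 11.65, and the means ran from 3.07 to 16.88. The library medians were 9.15, 9.15, 9.15 and 9.16. Read counts were not analysed here, so the sequencing depth and the counting error of each value are unknown. Levels as deposited rose with gene length: the Spearman correlation of the mean with the length of the longest annotated transcript was 0.30 across genes, which are not independent replicates. Levels of different genes were therefore compared after division by that length in kilobases, called the level per kilobase, whose median over all genes was 7.46. The level per kilobase still had a Spearman correlation of -0.13 with that length. Orders per kilobase thus lean somewhat towards genes with short transcripts.

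The libraries titled G carry marks of processing before deposit. In these 3 libraries, 111 genes with means between 3.27 and 6.38 differed from each other by the same offsets within 0.003, and the next most common pair of offsets was shared by 3 genes. Control 1, control 2 and control 3 also held 44, 158 and 158 values that occurred in another control library, against 0 in control 4. The highest values show it too. Kap stood at 15.98 in each of the 3 libraries titled G, and Timp3 at 16.38 in each of them. Control 4 lay closest to the mean of the controls, with an SD of its gene deviations of 0.14 against 0.18, 0.18 and 0.20 in controls 1, 2 and 3. A spread computed over these 4 libraries is thus the spread of processed values.

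The labelled tissue was first checked with 6 defining markers. Nphs1, which encodes nephrin, the backbone of the slit diaphragm (chr7:30458315-30487223, GRCm38, plus strand), stood at 12.66, 12.31, 12.81 and 12.54 in controls 1 to 4. Ehd3, an endocytic protein of glomerular endothelium (chr17:73804134-73832094, plus strand), stood at 15.20, 14.53, 15.06 and 14.94. Pdgfrb, the PDGF receptor of mesangial cells and pericytes, stood at 12.52, 12.07, 12.57 and 12.27. Each of these markers of the 3 glomerular cell types lay far above the median gene in every library, and each was lowest in control 2. Plat, the tissue plasminogen activator made by glomerular endothelium, stood at 15.44, 14.90, 15.42 and 14.94.

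Markers of tubule were high as well. Umod, which encodes uromodulin of the thick ascending limb (chr7:119462711-119479282, minus strand), stood at 15.17, 15.43, 15.53 and 15.24. Lrp2, which encodes megalin, the endocytic receptor of the proximal tubule (chr2:69424340-69586065, minus strand), stood at 15.69, 16.04, 15.94 and 16.10. Per kilobase, the order of the 6 from high to low was Umod (13.95), Plat (13.16), Ehd3 (13.06), Lrp2 (11.99), Nphs1 (10.38) and Pdgfrb (9.92). Plat and Ehd3, neighbours in that order, differed by less than their SDs over libraries of 0.29 and 0.29. The preparation thus held RNA of glomerular and of tubule genes side by side. In bulk RNA, fewer cells of a type and less RNA per cell cannot be told apart.

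Shroom3 itself, the gene the study lowers (chr5:92683435-92965318, plus strand), stood at 10.94, 10.85, 11.36 and 11.06 in these controls. Its level per kilobase was 8.30, rank 4044 of the genes with a length. Fyn, a Src-family kinase that phosphorylates nephrin (chr10:39368855-39565381, plus strand), stood at 11.04, 10.56, 10.92 and 10.87, and its level per kilobase was 9.01. Both lay in the upper part of the range in every library, well below nephrin.

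By mean level as deposited, the first gene was Podxl, which encodes podocalyxin, the sialomucin that coats podocyte foot processes (chr6:31519488-31563981, minus strand). It stood at 16.99, 16.58, 16.99 and 16.96 and was the highest gene of each library. Igfbp5, an IGF-binding protein counted here among mesangial markers (chr1:72857932-72874884, minus strand), was also among the first 10, at 16.34, 15.56, 16.34 and 16.25. Podxl and Igfbp5 therefore shared the first places with Timp3, a matrix metalloproteinase inhibitor, which was the second gene at a mean of 16.37. Only 1 mesangial marker, Igfbp5, was among the first 100 by mean.

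Tubule and general genes followed at once. Kap, the androgen-regulated protein of the mouse proximal tubule (chr6:133849851-133853762, minus strand), stood at 15.98, 15.98, 15.98 and 16.56. The chaperone Hspa8 had a mean of 15.95 and the elongation factor Eef1a1 one of 15.94. Lrp2, the kinase Wnk1, Acsm2, Actb, Igfbp7 and Umod were also among the first 15. The set was stable over the animals: 20 genes were among the first 25 of all 4 libraries, and 81 among the first 100 of all 4, of 116 genes that reached the first 100 of any.

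**Figure D1:**
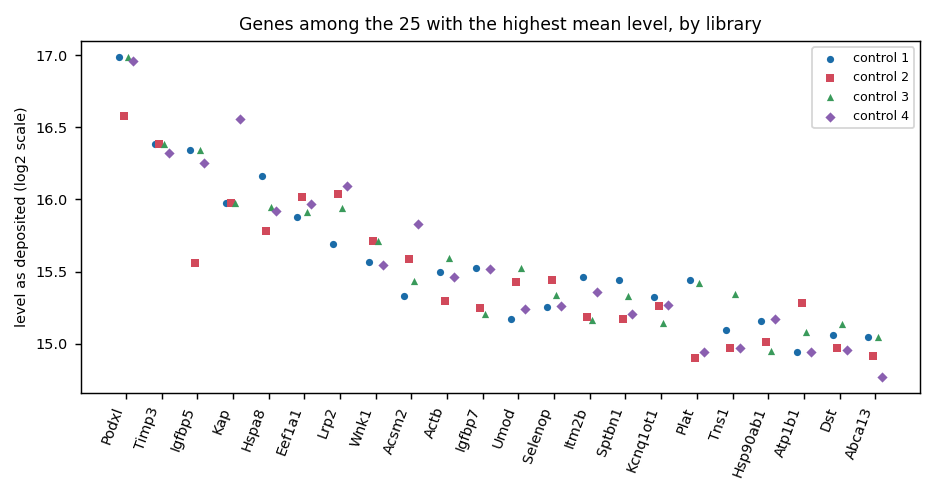
Level as deposited (log2 scale, vertical axis) of genes among the 25 with the highest mean, 1 point per control library, ordered by mean and not corrected for gene length. Podxl is first in each library, control 2 lies lowest for Podxl and Igfbp5, and control 4 stands above the other 3 libraries for Kap.

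Length changed this order. Per kilobase Kap was first at 16.62, followed by Igfbp7 (15.11) and Eef1a1 (15.10), with Actb (14.52) and Podxl (14.45) among the first 10. Of the first 25 genes by mean, 16 were also among the first 25 per kilobase. Kcnq1ot1, a long antisense RNA of an imprinted locus, moved from place 19 by mean to place 3022 per kilobase; its reads and those of the gene it overlaps cannot be told apart without strand. Abca13, whose transcript is very long, moved from 25 to 398. The highest 10 genes took 4.05%, 3.8%, 4.00% and 4.26% of the summed linear values of controls 1 to 4, and the highest 100 took 15.6%, 15.2%, 15.6% and 15.7%. No single gene or small set therefore took most of the signal in any library. Among the first 100 per kilobase, 5 were podocyte markers, 2 glomerular endothelial, 1 mesangial, 12 proximal tubule, 2 loop of Henle or distal tubule and 0 collecting duct.

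**Figure D2:**
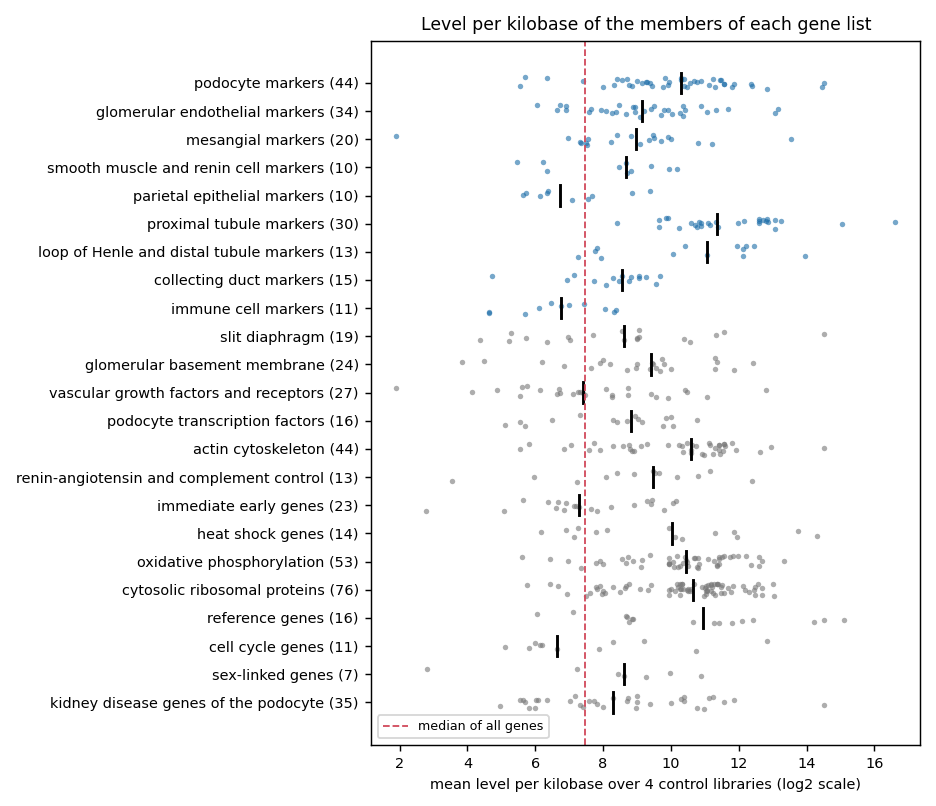
Mean level per kilobase over the 4 control libraries (log2 scale, horizontal axis) of the members of each gene list, 1 point per gene, with the list's median as a black bar, cell type lists in blue and other groups in grey; the dashed line is the median of all genes at 7.46. Proximal tubule markers have the highest median of the cell type lists at 11.37, podocyte markers stand at 10.30, and parietal epithelial and immune cell markers lie below the dashed line.

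Podocyte markers were the highest of the glomerular cell types. All 44 listed genes were measured, 41 of them above the median of all genes and 26 in the top 10% by level as deposited. Their median level was 12.49, percentile 95.9 of all genes, and per kilobase it was 10.30, percentile 94.2. Besides Podxl, members high per kilobase were Cdkn1c, a cell cycle inhibitor of differentiated podocytes, at 12.83, Enpep, the aminopeptidase A that degrades angiotensin, at 12.38, and Clic5, an ezrin-binding protein of foot processes, at 12.36. Col4a3, a chain of the mature basement membrane collagen, followed at 11.85, and the intermediate filament gene Nes at 11.81. The lowest member was the forkhead factor Foxd1, at 8.33, 7.21, 8.12 and 7.91.

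Genes of the slit diaphragm, 19 of 20 listed names, spread widely in level per kilobase. The adaptor Cd2ap stood at 11.56, the tight junction scaffold Tjp1 at 11.32, the giant cadherin Fat1 at 10.56 and nephrin at 10.38. Cd2ap, Tjp1 and Fat1 thus stood above nephrin in level per kilobase, Fat1 only narrowly. Per kilobase of all annotated exons Cd2ap stood at 10.06, so its level depends on the length measure. These values are sums over all cell types of the preparation, tubule included, and do not order the components within the slit diaphragm. The scaffold Magi2 (8.99), the nephrin partner Kirrel (8.55) and the polarity kinase Prkci (9.04) lay lower, and Kirrel3 was the lowest member, at a level of 6.43 as deposited. The list's median per kilobase was 8.61, percentile 74.5 of all genes.

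Transcription factors of the podocyte ranged over more than 5 units per kilobase, from Wt1 down to Zhx2. Wt1, the regulator of podocyte identity (chr2:105126529-105173616, plus strand), stood at 12.92, 11.98, 12.34 and 12.39, with an SD of 0.39. It was lowest in control 2. Per kilobase Wt1 led the list at 10.78, ahead of Klf6 (10.06), the coactivator Wwtr1 (10.02) and the glucocorticoid receptor Nr3c1 (9.85), while Zhx2 stood at 5.11.

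Of the genes in which mutations or antibodies are known in podocyte disease, 35 of 36 were measured, with a median per kilobase of 8.30, percentile 68.1. The phospholipase Plce1 (10.30), the phosphatase Ptpro (11.13), the actin crosslinker Actn4 (11.24) and the myosin Myo1e (10.39) were high members. Pdss2, an enzyme of coenzyme Q synthesis, was the lowest at 6.98 as deposited. Disease genes thus covered a wide range of levels, though none lay near the lowest gene mean of 3.07 as deposited.

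The basement membrane and its receptors were measured completely, with 24 of 24 genes and 22 above the median of all genes. Itgb1, the integrin subunit that pairs with Itga3 in podocytes, was the highest per kilobase at 12.41, followed by Col4a3 at 11.85, the dystroglycan gene Dag1 at 11.35 and the integrin ligand Npnt at 11.29. Col4a3 and Col4a4, chains of the same mature collagen trimer, stood at 11.85 and 9.39 per kilobase, and Col4a1, of the embryonic and mesangial trimer, at 9.57. Col4a6, a chain of Bowman's capsule and other membranes, was the lowest member at 7.22, 7.24, 7.22 and 7.16 as deposited. Lamb2, the laminin chain of the mature membrane, varied most, at 11.36, 11.13, 12.03 and 11.29, with control 3 above the others.

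Glomerular endothelial markers had a median level of 10.71, and 9.15 per kilobase, percentile 83.5. Of 36 listed names 34 were measured, 28 of them above the median of all genes. Plat and Ehd3 led, followed per kilobase by the sialomucin Emcn at 11.67, the junction protein Pecam1 at 11.32, the VEGF receptor Kdr at 11.06 and the lipoprotein lipase gene Lpl at 10.88. The angiopoietin receptor Tek stood at 10.41 and the phosphatase Ptprb, which acts on Tek, at 10.36. Ramp3, a coreceptor for adrenomedullin, was the lowest member at 6.33, 6.44, 6.60 and 6.50. Endothelial genes of general and of glomerular character were therefore present together.

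Ligands and receptors between the glomerular cells were unequal in level. Vegfa, the podocyte's main vascular signal (chr17:46016993-46032369, minus strand), stood at 12.20, 12.06, 12.47 and 12.31, and at 10.48 per kilobase. Its receptors Kdr and Flt1 stood at 11.06 and 9.41 per kilobase, and the coreceptor Nrp1 at 12.81, the highest of the 27 measured growth factors and receptors. The list's median per kilobase was 7.41, percentile 48.9, with Ackr3 (9.56) and the endothelin receptor Ednrb (8.73) between. Edn1, which encodes the endothelin ligand, stood at 7.76, 7.10, 7.05 and 7.05, higher in control 1 than in the other 3. Pdgfra, the PDGF receptor of interstitial fibroblasts, was at the bottom of the list with 4.72, 4.72, 4.72 and 4.54, and it belongs to the 111 genes of fixed offsets, so whether that level was measured or filled in was not tested.

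Mesangial markers had a median per kilobase of 8.96, percentile 80.9, with 20 of 22 measured and 16 above the median of all genes. Igfbp5 was far ahead at 13.54 per kilobase, followed by the secreted Wnt modulator Sfrp2 at 11.20, the angiotensin receptor Agtr1a at 10.78, the protease inhibitor Serpine2 at 10.01 and Pdgfrb at 9.92. Gata3, a transcription factor of mesangial cells, stood at 9.50, the growth factor Ptn at 9.46 and the proteoglycan Cspg4 at 7.53. The order of the 3 cell types by median per kilobase was podocyte, endothelial, mesangial, with endothelial and mesangial medians of 9.15 and 8.96. The SD of the library medians, as deposited, was 0.17 for endothelial and 0.25 for mesangial markers. The gap exceeded the former and not the latter, so the order of these lists is uncertain.

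Smooth muscle and renin cells of the arterioles were represented by 10 of 11 genes with a median of 8.69 per kilobase. Acta2, the smooth muscle actin (chr19:34241090-34255590, minus strand), stood at 11.17, 10.38, 11.53 and 10.77. Myh11, the smooth muscle myosin heavy chain, stood at 12.23, 11.70, 12.66 and 11.92. Ren1, the renin of juxtaglomerular cells (chr1:133350510-133360325, plus strand), stood at 10.84, 10.57, 11.34 and 10.65. All 3 were highest in control 3 and lowest in control 2. Of the list's 10 genes, 8 were highest in control 3, where 26.7% of all genes were. In control 2, 7 of the 10 were lowest, where 26% of all genes were. The spread of this list was the widest of the glomerular and vascular lists, with a median SD of 0.33 against 0.14 over all genes.

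Parietal epithelial markers lay low, with a median of 6.73 per kilobase, percentile 33.7, and 3 of 10 measured members above the median of all genes. The scaffold Akap12 was the highest at 9.38 per kilobase and Pax8, a factor also made by tubule, stood at 8.84. Keratins Krt8 and Krt18 stood at 7.56 and 7.07, the junction protein Cldn1 at 6.38, Cd44, which activated parietal cells carry, at 6.14, and Pax2 at 5.65. Akap12 and Pax8 apart, this list gave little signal.

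Proximal tubule markers had the highest median of the cell type lists over the 4 libraries. In control 3 alone, the median as deposited was 13.10 for them and 13.67 for the loop and distal tubule. All 30 were measured and all 30 exceeded the median of all genes, with 27 in the top 10% per kilobase, a median level of 13.29 and a median per kilobase of 11.37, percentile 98.1. Besides Kap, the gluconeogenic enzyme Pck1 stood at 13.07 per kilobase, the phosphate carrier Slc34a1 at 12.85, Acsm2 at 12.79 and the lactate carrier Slc5a12 at 12.60. Slco1a1, an organic anion carrier, varied most, at 10.07, 9.92, 10.40 and 11.09. The 44 podocyte genes took 3.22%, 2.40%, 2.88% and 2.94% of the summed linear values and the 30 proximal tubule genes 2.43%, 2.99%, 2.60% and 3.16%, so the podocyte sum was the larger in controls 1 and 3 and the proximal tubule sum in controls 2 and 4.

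The loop of Henle and distal tubule followed, with a median per kilobase of 11.06 over 13 genes. Slc12a1, the cotransporter of the thick ascending limb, stood at 12.44 per kilobase, Egf at 12.21, the calcium-binding protein Calb1 at 12.14, Wnk1 at 12.13 and the potassium channel Kcnj1 at 11.95. Wnk1 is only counted here among these markers, and its value is a sum over every cell type in the preparation. Slc12a3, the cotransporter of the distal convoluted tubule, stood at 12.98, 13.04, 13.76 and 12.89, highest in control 3. Collecting duct markers stood lower, with 15 of 16 measured, 0 in the top 10% and a median of 8.56 per kilobase. The sodium channel subunits Scnn1a, Scnn1b and Scnn1g stood at 9.69, 8.84 and 8.30, the intercalated cell pump subunits Atp6v1g3 and Atp6v0d2 at 9.55 and 9.26, and the chloride exchanger Slc26a4 at 9.05. The proximal and the loop and distal medians per kilobase were 11.37 and 11.06. The SD of the library medians, as deposited, was 0.14 for proximal and 0.35 for loop and distal markers. Per kilobase of all annotated exons the medians lay further apart, at 11.18 and 10.16, so their distance depends on the length measure. The collecting duct median lay below both.

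The immune cell list lay below the median of all genes. Of 20 listed names of immune cells 11 were measured, with a median per kilobase of 6.75, percentile 34.3. The invariant chain gene Cd74 stood at 8.38 per kilobase, the lysozyme gene Lyz2 at 8.33, H2-Ab1 at 8.06, Csf1r at 7.01 and Ptprc, the common leukocyte antigen, at 6.75, while Adgre1, the F4/80 antigen of macrophages, stood at 4.64. Cd74, Lyz2 and H2-Ab1 thus exceeded the all-gene median of 7.46, while Csf1r, Ptprc and Adgre1 did not. Of red cell genes only Bpgm (8.22) and Alas2 (6.38) were measured. The complement components and haemoglobins of these lists, and all 9 listed genes of the mitochondrial genome, were not analysed here.

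General cell functions gave a frame for these levels. Ribosomal protein genes, 76 of 76 measured, had a median per kilobase of 10.64 and oxidative phosphorylation genes, 53 of 53, a median of 10.46, both close to the podocyte markers at 10.30. Rpl10 stood at 13.01 per kilobase and Rpl29 at 5.77; Rpl29 is a gene of fixed offsets, and ribosomal protein genes have many near-identical pseudogenes among which reads may be split, so their levels are uncertain. The ATP synthase subunits Atp5b and Atp5a1 led oxidative phosphorylation at 13.32 and 12.69. Actin cytoskeleton genes, 44 of 44, had a median of 10.60 per kilobase. Actb (14.52) and Actg1 (12.96) led them, ezrin (Ezr) stood at 11.92 and non-muscle myosin Myh9 at 11.43, and Actn1 was the lowest at 7.72 as deposited. The podocyte isoform Actn4, at 11.24 per kilobase, thus far exceeded Actn1, at 5.82.

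Renin-angiotensin and complement control genes, 13 of 16 measured, had a median of 9.46 per kilobase. Enpep led at 12.38, ahead of the complement regulator Cd59a (11.14), Agtr1a (10.78) and Ren1 (10.18), while the angiotensin-converting enzyme Ace stood at 8.91 and Cd46 at 3.55. Heat shock genes, 14 of 14, had a median of 10.03 per kilobase, and were led by the constitutive Hspa8 (14.30) and Hsp90ab1 (13.74). The inducible Hspa1b stood at 8.54, 8.14, 9.07 and 9.29 as deposited. Immediate early genes, 23 of 28 measured, had a median of 7.30 per kilobase, near that of all genes, with Dusp1 (10.14), Klf6 (10.06) and Jun (9.80) highest.

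Cell cycle genes, 11 of 18 measured, had a median of 6.65 per kilobase, percentile 32.3. Their high members were the inhibitor Cdkn1c (12.83) and the cyclin Ccnd1 (10.73), and proliferation genes such as Top2a (5.82) and Mcm2 (6.65) were low. Genes of the Y chromosome were present, as the label male requires: Ddx3y stood at 11.53, 11.44, 11.41 and 11.47, Kdm5d had a mean of 10.24 and Eif2s3y of 10.09. Of the 9 sex-linked genes listed 7 were measured, and Xist and Usp9y were not. The Y gene Uty was the lowest of them, at a mean of 5.18 as deposited, and is a gene of fixed offsets. Eif2s3y was less even than Ddx3y, at 10.40, 9.81, 10.31 and 9.84, higher in controls 1 and 3 than in controls 2 and 4.

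The 4 libraries were close to each other. Pearson correlations between pairs of libraries across genes ran from 0.985, for controls 1 and 3, to 0.992, for controls 2 and 4. The median SD of a gene over the 4 libraries was 0.14, and 244 genes (1.88%) had an SD over 0.5, 18 of them over 1. Spread fell with level. In 5 classes of equal size from the lowest means to the highest, the median SD was 0.21, 0.16, 0.13, 0.11 and 0.10, and the genes with an SD over 0.5 numbered 175, 29, 22, 12 and 6. Cell type markers did not follow this trend: with mostly high levels, podocyte, endothelial, mesangial and proximal tubule markers had median SDs of 0.21, 0.22, 0.23 and 0.22.

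**Figure D3:**
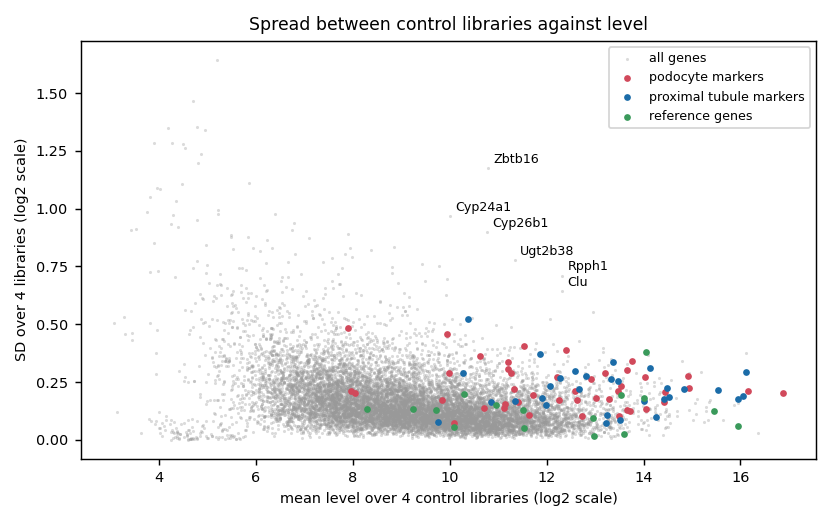
SD over the 4 control libraries against the mean level (both log2 scale), 1 point per gene, with podocyte markers in red, proximal tubule markers in blue and reference genes in green. Spread falls with level, Zbtb16 stands highest among well-expressed genes at an SD of 1.18, and many podocyte and proximal tubule markers lie above the bulk of genes of their level.

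Among genes above the median level, the largest spread was that of Zbtb16, a zinc finger factor induced by glucocorticoids (chr9:48654297-48836222, minus strand), at 11.88, 9.14, 10.87 and 11.27. Cyp24a1, the vitamin D catabolic enzyme of the proximal tubule (chr2:170482708-170497145, minus strand), stood at 9.01 in control 1 and 11.32 in control 2, with control 3 and control 4 (9.71) between them. Cyp26b1, a retinoic acid catabolic enzyme (chr6:84571414-84593908, minus strand), stood at 11.57, 10.01, 11.54 and 9.98. Control 2 was thus the lowest for Zbtb16 and the highest for Cyp24a1, while Cyp26b1 split controls 1 and 3 from controls 2 and 4. The secreted chaperone Clu stood at 11.41, 12.85, 12.66 and 12.37, lowest in control 1.

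Several genes of large spread, most of them metabolic, stood apart in control 4. Ugt2b38, a glucuronosyltransferase, stood at 10.86, 11.06, 10.95 and 12.50, and Hsd3b2, a steroid dehydrogenase, at 9.21, 9.62, 9.42 and 10.88. The methyltransferase Inmt stood at 9.48, 9.54, 9.85 and 10.84, Cyp2a4 at 8.68, 9.34, 9.59 and 10.35, and the innate immune receptor Tlr7 at 9.41, 8.76, 9.05 and 10.50. These 5 were grouped here because control 4 was highest in each, so their number is not a result. Of all genes, 15.4% were highest in control 4. Kap was highest there too, and a cause common to these genes was not tested. Members of the Ugt2b and Cyp2a families have near-identical paralogues, so these values are uncertain as to the family member. Short structured RNAs moved with control 3: Rpph1, the RNA of ribonuclease P, stood at 11.87, 12.13, 13.37 and 11.90, and Rmrp at 12.70, 12.79, 13.78 and 12.57. Neither is a typical poly-A RNA.

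At the other end, the 10 genes of smallest SD above the median level included Trip12, at 13.33, 13.32, 13.32 and 13.32, and Nup205, at 10.33, 10.33, 10.32 and 10.32. Of genes often used as references, Ywhaz (SD 0.02), Ppia (SD 0.03) and Eef1a1 (SD 0.06) were steady, while Gapdh, at 13.28, 13.71, 13.47 and 13.66, had an SD of 0.20 and Eef2, at 13.76, 13.92, 14.62 and 13.94, an SD of 0.38. Gapdh and Eef2 thus varied more than the median gene.

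Each library was next set against the mean of the other 3. By more than 0.5 in either direction, 558 genes stood apart in control 1, 548 in control 2, 835 in control 3 and 333 in control 4. Podocyte markers were low in control 2: all 44 lay below the mean of the other libraries, where 48.7% of all genes did, and 42 were lowest of the 4, where 26% of all genes were. The median difference was -0.35. Endothelial markers shared this (33 of 34 below, median -0.35), as did mesangial markers (18 of 20, median -0.36), slit diaphragm genes (19 of 19, median -0.27), smooth muscle and renin genes (10 of 10, median -0.41) and basement membrane genes (21 of 24, median -0.25). Glomerular and arteriolar genes were thus lowered together in control 2, relative to its other genes.

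**Figure D4:**
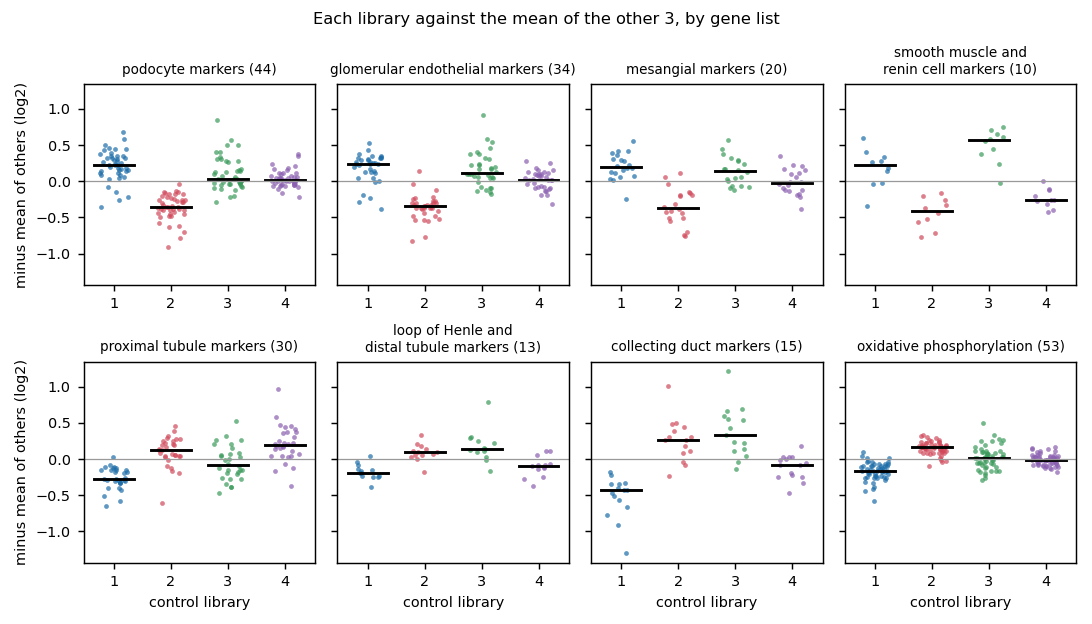
Difference of each control library from the mean of the other 3 (log2, vertical axis) for the members of 8 lists, 1 point per gene, with the list's median as a black bar. Podocyte, endothelial and mesangial markers lie below 0 in control 2, collecting duct markers lie below 0 in control 1, and smooth muscle and renin cell markers lie above 0 in control 3.

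Control 1 was the counterpart. Above the mean of the other libraries stood 39 of 44 podocyte markers, where 52.6% of all genes did, with a median difference of 0.22, and 29 of 34 endothelial and 19 of 20 mesangial markers. Without control 2, these median differences were 0.15, 0.13 and 0.10. Tubule genes were low in this library: 29 of 30 proximal tubule markers (median -0.28), 12 of 13 loop and distal tubule markers (median -0.19) and 15 of 15 collecting duct markers (median -0.43) lay below the mean of the others, where 47.4% of all genes did. Scnn1g stood at 9.19, 10.21, 10.29 and 9.81, and Fxyd4, a collecting duct regulator of the sodium pump, at 3.99, 5.73, 5.06 and 5.11. Fxyd4 was the lowest member of its list, at a mean of 4.97, among the low levels where spread was widest. Oxidative phosphorylation genes followed the tubule genes, with 49 of 53 below the others in control 1 (median -0.16) and 49 of 53 above them in control 2 (median 0.16), where 51.3% of all genes were.

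Glomerular and tubule markers thus moved in opposite directions between controls 1 and 2, and the ratio of the summed podocyte to proximal tubule shares turned with them. The part of unequal tubule carry-over in the low podocyte values of control 2 was not tested. Among single genes, Wt1, Nphs1, Podxl and Cdkn1c were each lowest in control 2. The marker lists behind this result were of full size on both sides, 44 of 44 podocyte and 30 of 30 proximal tubule genes.

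Control 3 differed by base composition. Across 12678 genes with a GC content, the Spearman correlation of its deviation with GC was 0.48, against -0.27, -0.15 and -0.17 in controls 1, 2 and 4. Its median deviation was -0.13 in the tenth of genes with the lowest GC content and 0.25 in the tenth with the highest. Smooth muscle and renin genes stood 0.57 above the other libraries in control 3 (9 of 10 above, where 45.7% of all genes were) and collecting duct genes 0.34 above (13 of 15). After subtraction of the median deviation of genes of like GC content, these became 0.42 and 0.24, and the basement membrane genes' 0.23 became 0.11. Without control 1, the collecting duct difference of control 3 was 0.19. The differences in podocyte markers changed little by this step, to -0.34 in control 2.

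Of 23 immediate early genes, 18, 4, 16 and 6 stood above the mean of the others in controls 1 to 4, where 52.6%, 51.3%, 45.7% and 48.9% of all genes did. Their median differences were 0.22, -0.25, 0.16 and -0.13. After the GC step these were 0.26, -0.22, 0.06 and -0.13, so that the excess in control 3 was largely lost. Jun stood at 11.64, 11.23, 11.63 and 11.41. Heat shock genes followed another order, with 13 of 14 above the others in control 4, where 48.9% of all genes were, and 2 of 14 in control 3, where 45.7% were. Cytosolic ribosomal protein genes lay below the others in control 4 for 70 of 76 genes, where 51.1% of all genes did, although by a median of only -0.08. Library differences were thus not of 1 kind.

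Clock genes made a further difference, seen in the data first and listed afterwards, so they are described without a test. The circadian clock of every cell runs on a feedback loop in which Clock or Npas2 with Arntl (BMAL1) binds E-boxes and drives the Per and Cry repressors, the Nr1d receptors and output factors such as Dbp, Tef and Hlf, while Nfil3 opposes those output factors at D-boxes. Kidney cells carry this clock, and transcript levels of its members turn over the day. All 13 repressors and output genes lay below the mean of the other libraries in control 4, where 51.1% of all genes did, with a median of -0.43. Of the 13, 12 were lowest of the 4 libraries, where 14.7% of all genes were. All 4 activators and opposing factors were highest in control 4, where 15.4% of all genes were, with a median of 0.50. Their median level as deposited was low, at 7.26, percentile 14.8 of all genes.

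The promoters of members that moved this way are shown because they hold the motifs through which the loop is known to act. Sequences are from RefSeq on GRCm38.p6, 5′ to 3′ on the strand of the gene, with E-boxes (CACGTG) or D-boxes (TTATGTAA) in capitals; both strands were searched. Each window covers 250 bases before the start site and 50 after it. They are Ciart (chr3:95882179-95882478, minus strand), Per1 (chr11:69098699-69098998, plus strand), Cry1 (chr10:85185005-85185304, minus strand), Tef (chr15:81802423-81802722, plus strand) and Per3 (chr4:151044616-151044915, minus strand).
Ciart: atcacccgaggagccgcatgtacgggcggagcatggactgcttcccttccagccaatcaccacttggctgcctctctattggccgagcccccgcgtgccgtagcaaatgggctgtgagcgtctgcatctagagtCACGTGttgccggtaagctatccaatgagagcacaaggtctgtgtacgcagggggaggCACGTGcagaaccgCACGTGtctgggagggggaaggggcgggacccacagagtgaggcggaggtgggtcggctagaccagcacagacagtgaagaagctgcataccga
Per1: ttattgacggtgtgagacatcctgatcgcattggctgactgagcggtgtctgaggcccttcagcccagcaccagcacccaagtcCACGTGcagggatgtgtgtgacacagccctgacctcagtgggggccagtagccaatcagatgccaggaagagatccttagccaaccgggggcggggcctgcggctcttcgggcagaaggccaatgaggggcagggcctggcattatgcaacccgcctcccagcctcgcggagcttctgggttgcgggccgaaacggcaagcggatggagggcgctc
Cry1: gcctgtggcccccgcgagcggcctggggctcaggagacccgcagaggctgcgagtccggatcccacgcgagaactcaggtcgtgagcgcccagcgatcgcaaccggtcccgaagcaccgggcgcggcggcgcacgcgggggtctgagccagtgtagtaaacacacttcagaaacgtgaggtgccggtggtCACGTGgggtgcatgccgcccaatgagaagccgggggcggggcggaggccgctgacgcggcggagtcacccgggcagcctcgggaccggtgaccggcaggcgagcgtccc
Tef: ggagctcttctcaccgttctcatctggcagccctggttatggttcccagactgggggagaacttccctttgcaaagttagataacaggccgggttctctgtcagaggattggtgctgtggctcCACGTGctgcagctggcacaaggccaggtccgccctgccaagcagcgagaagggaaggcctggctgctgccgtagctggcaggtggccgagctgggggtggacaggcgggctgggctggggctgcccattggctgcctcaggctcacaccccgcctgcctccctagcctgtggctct
Per3: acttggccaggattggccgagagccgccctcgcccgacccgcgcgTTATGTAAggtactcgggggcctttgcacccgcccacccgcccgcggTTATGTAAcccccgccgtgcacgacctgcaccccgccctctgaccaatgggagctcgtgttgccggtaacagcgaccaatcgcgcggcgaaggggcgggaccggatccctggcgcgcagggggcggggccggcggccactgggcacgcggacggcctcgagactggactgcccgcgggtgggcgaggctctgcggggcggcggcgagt

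The E-boxes of the Ciart promoter begin 116, 58 and 44 bases before the start site, that of Per1 166, of Cry1 60 and of Tef 127 bases before it. The D-boxes of Per3 begin 205 and 158 bases before the start. Of the 11 repressor and output genes with a promoter in the table, 5 held an E-box in at least 1 of their windows (Per1, Cry1, Ciart, Tef and Bhlhe41) and 1 a D-box, and of the 4 activators and opposing factors 0 held either. Of all 32851 promoters of the same length, 7.15% held an E-box and 0.938% a D-box. These shares are per window, while the clock genes were counted per gene. Genes with several windows have more chances of a match, so the numbers are not directly comparable. A match describes the letters in the window and is not a measured site. Per2 and Bhlhe40 had no entry.

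Ciart, a repressor of Clock and Arntl (chr3:95878503-95882251 as a gene), stood at 7.60, 7.73, 7.73 and 6.56 in controls 1 to 4. Dbp, an output activator that rises and falls widely over the day, stood at 10.92, 10.64, 10.99 and 10.25. Tef, of the same family, stood at 12.45, 12.48, 12.80 and 11.97. In each of them control 4 lay below the other 3. Hlf, the remaining member of that family, stood at 11.52, 11.80, 11.50 and 11.18.

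The period genes moved likewise. Per1 stood at 10.63, 10.48, 11.02 and 10.45, Per2 at 11.42, 11.04, 11.50 and 10.89, and Per3 at 10.50, 10.38, 10.80 and 10.03. For Per1 the gap between controls 2 and 4 was small. The cryptochrome Cry1 stood at 7.76, 7.78, 8.11 and 7.61, and Cry2 at 9.98, 9.65, 9.87 and 9.43. Nr1d1, the REV-ERB alpha receptor, was the exception, at 12.03, 11.42, 12.02 and 11.74, with control 2 and not control 4 lowest.

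The opposing members were high in control 4. Arntl stood at 7.42, 7.23, 6.99 and 7.82, Npas2 at 7.26, 6.96, 6.95 and 7.45, and Clock at 12.41, 12.26, 12.22 and 12.51. Nfil3 stood at 5.35, 5.42, 5.86 and 6.43. Arntl, Npas2 and Nfil3 lay in the lowest class of genes by mean (up to 7.59), where spread was widest. The median SD there was 0.21, against 0.14 over all genes. Only Clock was well expressed. Control 3 was lowest for Arntl, Npas2 and Clock and highest for 7 of the 13 repressors and output genes, where 26.7% of all genes were highest in it, with a median of 0.38 above the others, which became 0.24 after the GC step and 0.21 without control 4. Centring on GC left control 4 at -0.41 and 0.51. The time of day of each collection is not given in the sources used here, and its part in the result was not tested. Title style and library cannot be told apart, since control 4 is the only control with a CB6 title.

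**Figure D5:**
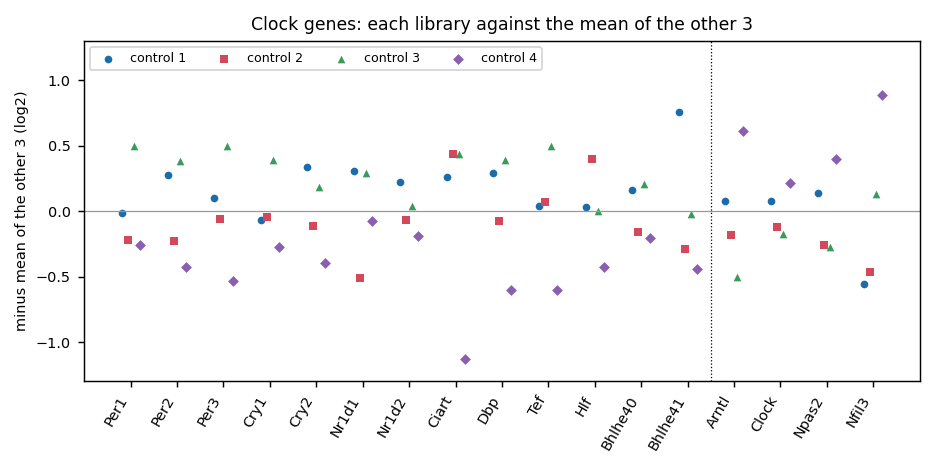
Difference of each control library from the mean of the other 3 (log2, vertical axis) for 13 clock repressors and output genes (left of the dotted line) and 4 activators and opposing factors (right), 1 point per library. Control 4 (purple diamonds) lies below 0 for all 13 and above 0 for all 4, where 51.1% and 48.9% of all genes do. Ciart shows its lowest value.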

How the data were processed

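RNA sequencing of isolated glomeruli was used in 4 control libraries, 1 per mouse per the design text; 3 knockdown libraries were left out. The authors deposited, for every library, expression values by gene symbol that they had already brought to a log scale, taken here as log2 since no base is stated. The submitters' processing notes name BWA as the aligner and mm10 as the build. Counter, strand use, normalization and depth are not given in the sources, so no counting error is given and no count test was used.

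Each table held the same 12958 rows (12957 distinct symbols, 18 of them turned into dates by a spreadsheet). Symbols were matched to GENCODE M21 on GRCm38, the build also called mm10, and 12682 matched 1 gene ID. Means, SDs and ranks were taken over the 4 libraries as deposited. Levels per kilobase subtract log2 of the longest transcript in kilobases. With 1 group there was no comparison between groups to test; single libraries were screened with Dixon's ratio for values that stand apart. Lists were described by counts and medians beside those of all genes: podocyte, glomerular endothelial, mesangial, smooth muscle and renin, parietal, proximal tubule, loop and distal tubule, collecting duct, immune and red cell markers, and the functional groups of the report. The members and lists were chosen with earlier results of these data known, and the clock genes after their values were seen.

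Genes named are the 25 highest by mean and 15 per kilobase, the 15 of largest and 10 of smallest SD among genes above the median level, the 3 lowest, the 8 highest, the lowest and the most variable member of each list, the 6 given markers, Shroom3 and Fyn, and the clock genes. Some of these genes are not reported here. The lowest were 1700112J16Rik (3.07), Gm19784 (3.12) and Rab15 (3.27). Alternatives were leaving out each library, quantile normalization, median scaling, the upper part of genes by mean, other length measures, the mean of linear values, leaving out the genes of fixed offsets and, added after seeing the data, centring on genes of like GC content. The code was tested on simulated data. Python 3.11.15, numpy 2.4.6, pandas 2.3.3, scipy 1.17.1 and matplotlib 3.10.9 were used.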

Additional observations from a re-analysis of the deposited data

Results flagged for a closer look

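Among 282 groups of 4 libraries looked at, 17 (6.03%) had 1 library whose gap to the nearest of the others exceeded Dixon's critical share of the range. Chance marks about 1 in 20 groups, and 5.71% of all genes were marked in the same way, so the number itself is near the background. Control 4 was the library that stood apart in 8 of them, control 1 in 4, control 2 in 3 and control 3 in 2.

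In control 2 the median level of slit diaphragm genes was 10.2, against 10.63 to 10.66 in the other libraries. Podxl was also low there at 16.58, with the others between 16.96 and 16.99, and Igfbp5 at 15.56, with the others between 16.25 and 16.34. All 3 belong to glomerular cells, whose lists were low in that library.

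In control 1, low values were those of Bpgm (9.131), Cldn16, a claudin of the thick ascending limb (7.386), and Ttc36 (9.633), and the high value was that of Edn1 (7.764). In control 3, Rpph1 (13.37) and the distal tubule cotransporter Slc12a3 (13.76) were high.

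In control 4, Ciart was low at 6.556 and Ugt2b38 high at 12.5. Kap (16.56) was high against a value of 15.98 in each of the other 3 libraries, and Timp3 (16.32) low against 16.38 in each. With such equal values in the libraries titled G, nearly any other value in control 4 is marked. Pdgfra (4.541) and Rab15 (2.473) were low, and Rpl29 (5.541) and Uty (5.197) high, against nearly equal values in the libraries titled G; these 4 genes belong to the 111 whose values there differ by fixed offsets, so the narrow range of those libraries marks them.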

How the results depend on the processing

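With values as processed by the authors and no counts, neither depth nor counting error limits can be given. The log base and the collection times are not stated, 4 animals estimate spread loosely, and symbols with near-identical copies are uncertain. No paired analysis was possible because only 1 group was described and no groups were compared.

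Under quantile normalization and median scaling, and leaving out any library, all list medians moved by less than the SD of their library medians. Differences of a library from the others that changed sign under some alternative lay between -0.08 and 0.08 as reported: without control 2, the podocyte medians of controls 3 and 4 turned from 0.03 to -0.06 and from 0.01 to -0.09. Those of the clock lists in control 4 ran from -0.49 to -0.33 and from 0.42 to 0.61. The median SD over genes ran from 0.114 to 0.15 when 1 library was left out, lowest without control 3, and the genes with an SD over 0.5 from 220 to 290. In the upper part of genes by mean, the median SD was 0.111, 24 genes had an SD over 0.5 and the highest 100 genes took 17.1% of the summed linear values. There, by construction, list medians rose to glomerular endothelial markers 11.47, smooth muscle and renin cell markers 10.65, parietal epithelial markers 10.60, loop of Henle and distal tubule markers 13.89, immune cell markers 9.28, slit diaphragm 11.35, vascular growth factors and receptors 10.97, podocyte transcription factors 11.53, actin cytoskeleton 12.35, renin-angiotensin and complement control 11.16, immediate early genes 10.01, heat shock genes 12.45, oxidative phosphorylation 10.89, cytosolic ribosomal proteins 10.98, reference genes 12.95, cell cycle genes 10.51, sex-linked genes 11.32 and kidney disease genes of the podocyte 11.89. Divided by the length of the longest transcript, list medians were podocyte markers 10.30, glomerular endothelial markers 9.15, mesangial markers 8.96, smooth muscle and renin cell markers 8.69, parietal epithelial markers 6.73, proximal tubule markers 11.37, loop of Henle and distal tubule markers 11.06, collecting duct markers 8.56, immune cell markers 6.75, slit diaphragm 8.61, glomerular basement membrane 9.41, vascular growth factors and receptors 7.41, podocyte transcription factors 8.83, actin cytoskeleton 10.60, renin-angiotensin and complement control 9.46, immediate early genes 7.30, heat shock genes 10.03, oxidative phosphorylation 10.46, cytosolic ribosomal proteins 10.64, reference genes 10.96, cell cycle genes 6.65, sex-linked genes 8.61 and kidney disease genes of the podocyte 8.30, and 16 of the 25 highest genes were shared. Divided by the length of all annotated exons, they were podocyte markers 9.82, glomerular endothelial markers 8.61, mesangial markers 8.38, smooth muscle and renin cell markers 8.42, parietal epithelial markers 6.71, proximal tubule markers 11.18, loop of Henle and distal tubule markers 10.16, collecting duct markers 8.56, immune cell markers 6.47, slit diaphragm 8.36, glomerular basement membrane 8.89, vascular growth factors and receptors 7.40, podocyte transcription factors 8.50, actin cytoskeleton 10.09, renin-angiotensin and complement control 8.83, immediate early genes 7.14, heat shock genes 9.53, oxidative phosphorylation 10.03, cytosolic ribosomal proteins 9.91, reference genes 10.63, cell cycle genes 6.19, sex-linked genes 8.11 and kidney disease genes of the podocyte 7.95. Those lower values follow from the units.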
